A study of Caenorhabditis elegans with 2 samples.

Results

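The genes described here encode calcium transport proteins and ion channels, and 5 of the 6 are known for roles in the calcium cycle or electrical excitability of Caenorhabditis elegans muscle. They are sca-1, unc-68, egl-19, twk-18, shk-1 and lgc-34, out of 19973 protein-coding genes. They were chosen by name from the regions that precipitated with PAG-3 near them, so the presence and height of those regions describe the choice and carry no test. PAG-3, the worm relative of vertebrate Gfi1, binds DNA through zinc fingers and is best known for its roles in neurons. Chromatin immunoprecipitation with sequencing (ChIP-seq) was done on whole hermaphrodites with an antibody against GFP. All animals were of strain OP154, which carries unc-119(ed3) III and the transgene wgIs154, and they expressed PAG-3 with GFP and FLAG at its C-terminus. They were first-stage (L1) larvae, starved after bleaching and taken 6 hours after synchronization, and 2 biological replicates made up the 1 group. The transgene limits the model, since the bound protein is the tagged one and it comes from an integrated transgene. No control sample was analysed here, and because whole larvae were used, the cells in which a region was bound cannot be told apart.

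In a muscle fibre, depolarization opens voltage-gated calcium channels of the L type, whose pore subunit in the worm is EGL-19. The ryanodine receptor, UNC-68, releases further calcium from the sarcoplasmic reticulum, and the pump SCA-1 returns it there. Potassium channels such as SHK-1 and TWK-18 bring the membrane back towards rest. LGC-34 belongs by name to the ligand-gated ion channel family.

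A region is a stretch of genome in the authors' peak lists, its summit is its highest point, and its signal is the height given by their caller on a scale that was not stated. Of 30000 regions called on both replicates together (the pooled list), 910 were kept by a threshold on reproducibility, the irreproducible discovery rate (IDR). These thresholded regions were also the 910 with the highest signal, and the lowest of them had a signal of 43.4. A region was counted for a gene when its summit lay in the gene body or within 5 kb of it. By this rule 34 pooled regions belonged to the 6 genes, 8 of them thresholded, and every gene had at least 1. Of all protein-coding genes, 10.2% had a thresholded region by the same rule, and of those that span 5 kb or more, as unc-68, egl-19 and shk-1 do, 16% had one. The choice of the genes used these regions, so nothing is read from the count of 6. Positions are on ce11 (WBcel235), counted from 1.

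The sequences under the 8 summits show the DNA at the heart of each region, and each runs from 50 bp before to 50 bp after the summit in the direction of its gene. They were read from the RefSeq genome of the same assembly. Capitals mark copies, on either strand, of the short words that are compared further on.
lgc-34, chrII:526519-526619, plus strand: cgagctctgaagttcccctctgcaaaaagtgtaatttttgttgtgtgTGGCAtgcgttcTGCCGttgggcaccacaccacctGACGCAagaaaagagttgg
twk-18, chrX:8986609-8986709, plus strand: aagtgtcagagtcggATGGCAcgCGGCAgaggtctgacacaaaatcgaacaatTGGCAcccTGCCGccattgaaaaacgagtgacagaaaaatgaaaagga
unc-68, chrV:6930421-6930521, minus strand: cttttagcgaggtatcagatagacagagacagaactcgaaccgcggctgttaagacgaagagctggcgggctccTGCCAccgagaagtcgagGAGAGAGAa
sca-1 intron, chrIII:10816264-10816364, minus strand: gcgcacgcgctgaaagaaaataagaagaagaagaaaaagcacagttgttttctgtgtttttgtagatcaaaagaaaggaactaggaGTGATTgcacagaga
sca-1 promoter, chrIII:10817041-10817141, minus strand: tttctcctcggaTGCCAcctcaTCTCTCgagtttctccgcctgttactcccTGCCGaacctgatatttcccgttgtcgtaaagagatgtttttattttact
sca-1 far upstream, chrIII:10819994-10820094, minus strand: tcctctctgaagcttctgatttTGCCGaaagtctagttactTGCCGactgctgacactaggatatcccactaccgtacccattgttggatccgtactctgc
shk-1, chrII:9757778-9757878, plus strand: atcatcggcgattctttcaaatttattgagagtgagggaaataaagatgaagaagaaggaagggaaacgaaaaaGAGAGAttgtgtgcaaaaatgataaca
egl-19, chrIV:7406938-7407038, plus strand: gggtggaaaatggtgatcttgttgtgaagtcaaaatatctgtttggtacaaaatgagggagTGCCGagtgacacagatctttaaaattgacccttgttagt

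Among the calcium transport genes, sca-1 had the most thresholded regions. The gene (WBGene00004736) spans 4945 bp on the minus strand of chromosome III (10811906 to 10816850), and its annotated transcripts start at 2 places. Its highest region had its summit in an intron, 536 bp inside the gene and 406 bp upstream of the inner transcript start, with a signal of 134 and rank 85 in the pooled list. The signal of this region was 94.3 in replicate 1 (rank 94) and 35.8 in replicate 2 (rank 102), with summits 1 bp and 0 bp from the pooled one. It stood near the top of every list, and the replicates placed it alike. The second region lay 241 bp upstream of the outer start, with a signal of 107 and rank 127. It had 74.3 in replicate 1 (rank 145) and 32.2 in replicate 2 (rank 131). So each transcript start of the calcium pump gene had a thresholded region upstream of it, at 406 bp and 241 bp, and each stood at like ranks in the replicates.

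The third region of sca-1 lay 3194 bp upstream and was the lowest of the 8. Its pooled signal was 45.4, at rank 821. It ranked 317 in replicate 1, with a signal of 50.4, and had no summit within 100 bp in replicate 2. Between it and the promoter stood 3 regions below the threshold, with signals of 35.8, 26.5 and 34.1 at 1059, 1835 and 2633 bp upstream. The nearest protein-coding gene on that side was 16085 bp away, whereas the median over all protein-coding genes was 937 bp. A further thresholded region, with a signal of 73.6 (rank 271), lay 7.58 kb outside the gene body and thus beyond the rule, and sca-1 was still the nearest protein-coding start.

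At unc-68, the gene of the ryanodine receptor, a single strong region stood upstream of a long and otherwise nearly empty gene. The gene (WBGene00006801) spans 27358 bp on the minus strand of chromosome V (6901681 to 6929038). The summit lay 1433 bp upstream of its outer start, at 6930471, with a pooled signal of 194 (rank 46). The signal was 154 in replicate 1 (rank 42) and 36.4 in replicate 2 (rank 94). It was near the top of each list, somewhat lower in replicate 2. The only other pooled region was in an intron 19549 bp inside the gene, with a signal of 17.0 at rank 15216. The highest region was thus 11.4 times as high as the next, against a median of 2.31 over the 2009 genes with a thresholded region and at least 2 pooled ones. Among the 6 genes this ratio ran from 1.24 at sca-1 to 22.5 at lgc-34. The gene held 0.535 pooled regions per 10 kb of its window, the lowest of the 6 genes, whose median was 3.52. The median over all genes was 2.77.

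The calcium channel gene egl-19 had the weakest highest region of the 6 genes. The gene (WBGene00001187) spans 13159 bp on the plus strand of chromosome IV (7405582 to 7418740). Its thresholded summit lay in an intron, 1406 bp inside the gene and 9223 bp upstream of the inner transcript start. The pooled signal was 50.7, or 1.17 times the lowest thresholded signal, at rank 621. It had 29.4 in replicate 1 (rank 1045) and 19 in replicate 2 (rank 600). A region 3401 bp upstream, with a signal of 40.5 and rank 1085, was the highest of the 26 regions that missed the threshold at the 6 genes, while the lowest inside it was that of sca-1 at 45.4. That region ranked 1129 in replicate 1 and 2372 in replicate 2, and another gene's start was nearer to it, at 3296 bp.

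The potassium channel gene twk-18 had one of the highest regions of the genome. TWK-18 is a twin-pore potassium channel of body wall muscle, and mutations that raise its activity are known to paralyse the animal. The gene (WBGene00006672) spans 3848 bp on the plus strand of chromosome X (8988128 to 8991975). Its thresholded summit, at 8986659, lay 1469 bp upstream of the start with a pooled signal of 303 (rank 18). The signal was 210 in replicate 1 (rank 22) and 94.3 in replicate 2 (rank 14). This channel gene thus stood among the highest regions of every list. The promoter itself, taken as 1000 bp upstream to 200 bp downstream of the start, held a weak region 797 bp upstream with a signal of 21.1 (rank 7421). The 6 regions of twk-18 below the threshold had signals from 13.3 to 27.4.

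At shk-1, which encodes a Shaker channel that carries voltage-gated potassium current in muscle and neurons, the replicates differed more in rank than at the other thresholded regions of these genes found in both lists. The gene (WBGene00014261) spans 10054 bp on the plus strand of chromosome II (9758232 to 9768285) and its transcripts start at 4 places more than 200 bp apart. The thresholded summit lay 404 bp upstream of the outermost start, with a pooled signal of 75.8 (rank 251). It ranked 198 in replicate 1, with a signal of 63.7, but 2239 in replicate 2, with 13.7. The summit of replicate 1 was 62 bp from the pooled one and that of replicate 2 was 7 bp from it. None of the inner starts had a thresholded region, and an intron region 1322 bp inside the gene had a signal of 24.6 (rank 4326). A much higher region, with a signal of 247 (rank 30), lay 6.07 kb outside the gene body and thus outside the rule, nearest to the start of ZK1321.4.

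The highest region of all 6 genes was at lgc-34, and it stood on the gene start. The gene (WBGene00020836) spans 3801 bp on the plus strand of chromosome II (526574 to 530374) and has 1 annotated transcript. The summit at 526569 lay 5 bp upstream of the start, with a pooled signal of 376 (rank 11). The signal was 283 in replicate 1 (rank 11) and 94.7 in replicate 2 (rank 13). Its place hardly changed between the lists. The region was 170 bp wide, one of 19 thresholded regions narrower than the usual 340 bp. The other 5 pooled regions of lgc-34 had signals from 14.8 to 16.8, so the highest was 22.5 times as high as the next.

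**Figure D1:**
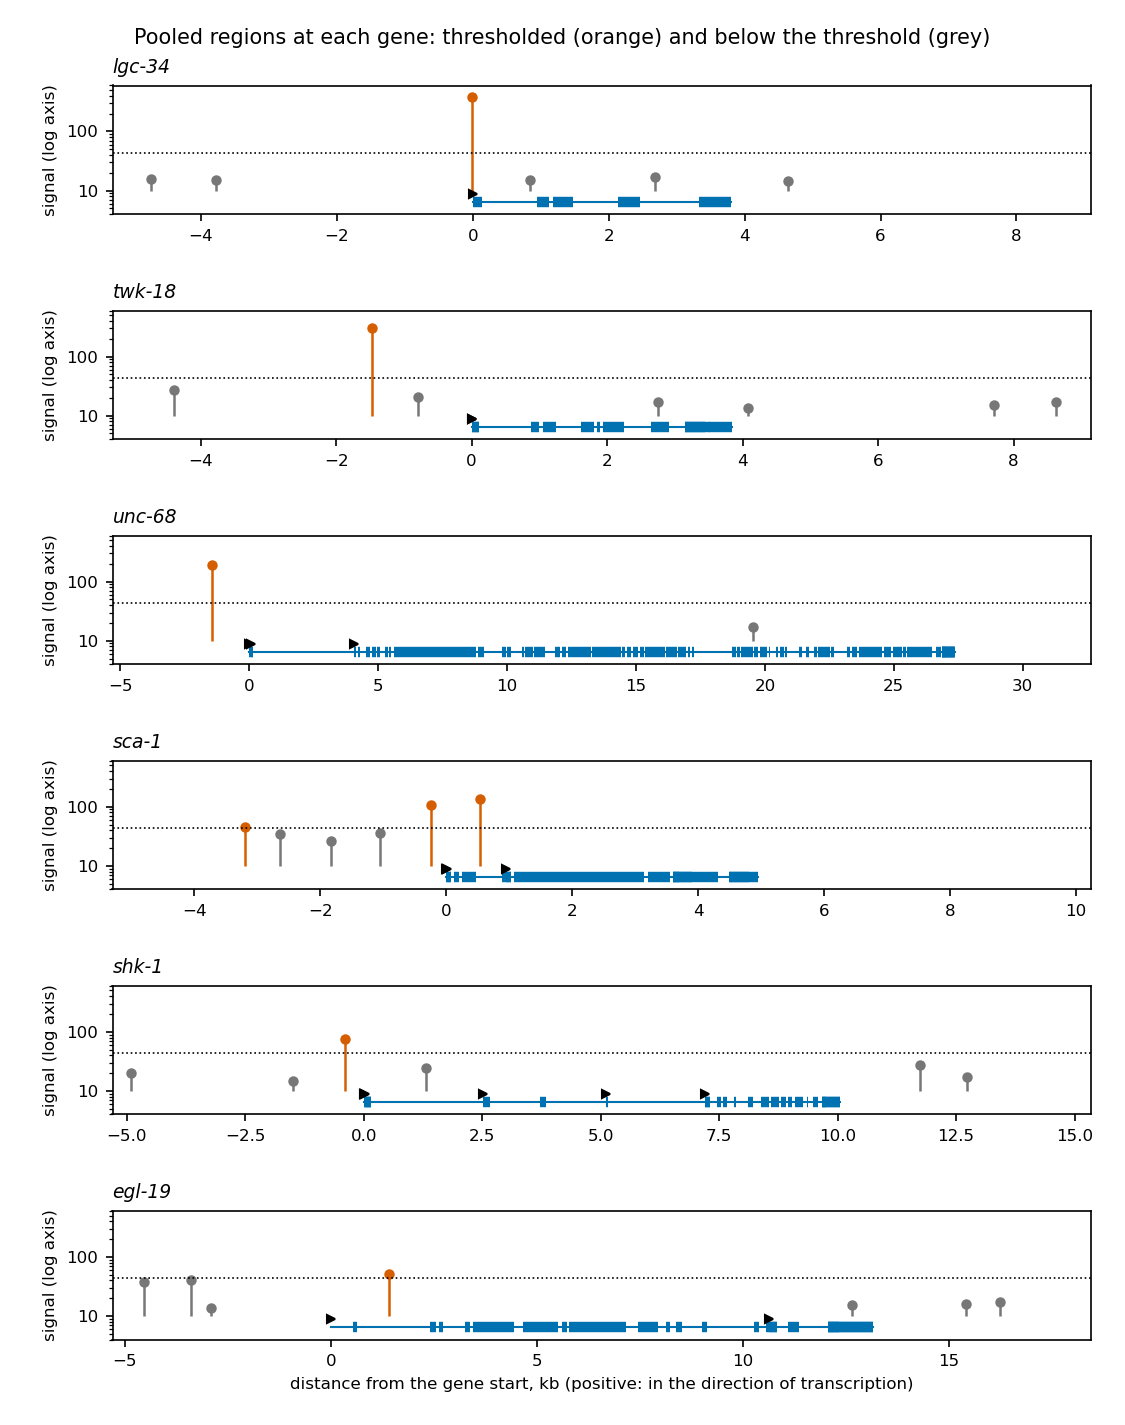
Pooled regions at each gene, by distance of the summit from the gene start in kb (horizontal) and signal (vertical, log axis). Orange marks thresholded regions and grey those below the threshold, the dotted line is the lowest thresholded signal of 43.4, blue bars are exons and black arrowheads are transcript starts. The orange points stand at or upstream of the outer start in 6 of 8 cases, and sca-1 alone has 3 of them.

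By height the genes ran lgc-34 (376), twk-18 (303), unc-68 (194), sca-1 (134), shk-1 (75.8) and egl-19 (50.7). The same order held in replicate 1, and in replicate 2 egl-19 came before shk-1. With 1 value per replicate and signals on a separate scale in each list, the spread of a height was not estimated, so neighbours in this order cannot be called different. Of the 6 genes, 4 had a region among the 100 highest, against 1.14% of all protein-coding genes. sca-1, shk-1 and lgc-34 had a thresholded summit in the promoter, against 2.56% of all genes, and sca-1 had more than 1 thresholded region, against 1.22%. Since the genes were picked from these regions, these shares are given as background alone. The median signal of the 8 regions was 120, and that of all 910 was 58.5.

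Of the 8 regions, 6 lay upstream of the gene start and 2 in introns of their gene. The start nearest to each summit, among all protein-coding genes, was that of the gene it was counted for. The genes were picked by name from regions near them, so nothing is read from this. The distance to that start had a median of 971 bp over the 8 regions, close to the 1040 bp over all 910. Of the 26 regions below the threshold, 12 lay upstream, 8 downstream, 4 in introns, 1 in a coding exon and 1 in the untranslated region at the end of egl-19. For 18 of these 26 the nearest start belonged to another gene, such as aqp-10 (119 bp) beyond the end of shk-1 and srtx-1 (225 bp) beyond the end of egl-19. The shares of these places and nearest starts over all regions were not computed.

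The replicates were compared by rank, because the signals of the lists were not on 1 scale. Of the 8 thresholded regions, 7 had a summit within 100 bp in both replicate lists, as did 82.5% of all 910. The ranks of those at lgc-34, twk-18 and unc-68 and of the 2 higher ones of sca-1 were 145 or better in both replicates. In replicate 1, 7 of the 8 regions were among its 910 highest, as were 78% of all thresholded regions. In replicate 2, 6 of the 8 were, as were 52.6% of all. At shk-1 the ranks were more than 10-fold apart, which was so for 13.8% of the 751 regions matched in both. Of the 26 regions below the threshold, none was among the 910 highest of either replicate, 10 had a summit in both lists and 4 in neither. The like shares over all regions below the threshold were not computed, so nothing is read from these counts.

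**Figure D2:**
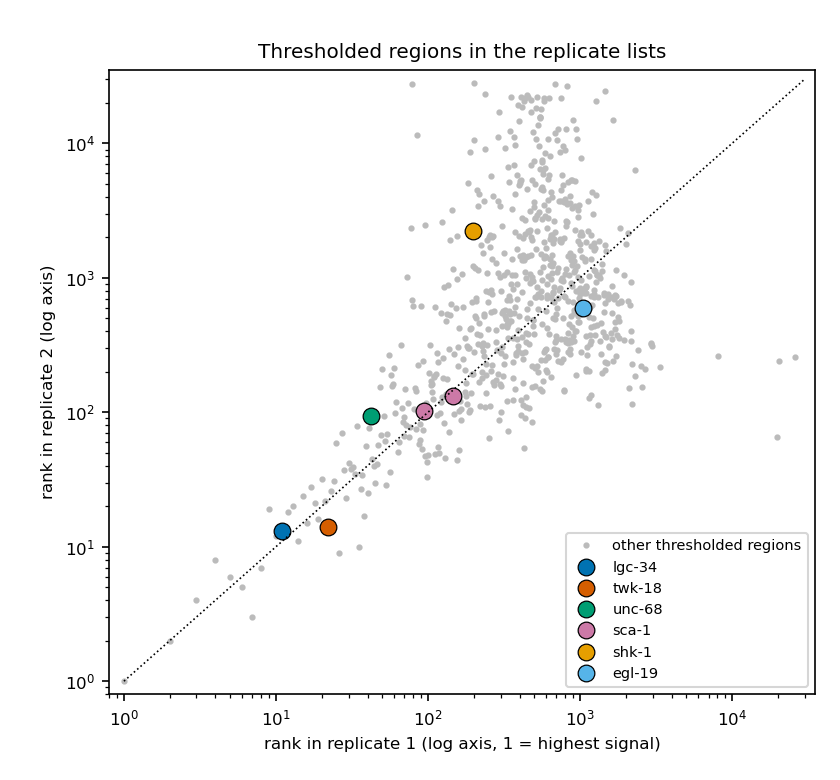
Rank of each thresholded region in replicate 1 (horizontal) and replicate 2 (vertical), both log axes on which 1 is the highest signal, for the 751 regions found in both lists. Coloured points are the regions of the 6 genes, of which the lowest one of sca-1 is missing because replicate 2 had no match, and the dotted line marks equal ranks. The regions of lgc-34, twk-18 and unc-68 and 2 of sca-1 lie near the line at ranks of 145 or better, whereas shk-1 lies far above it.

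Sequence was not used to choose the genes. The 6-letter words counted here, apart from that bound by the muscle regulator HLH-1, were known from an earlier look at the same peak lists. Their shares therefore describe these data and carry no test. The 101 bp at the 8 summits had a mean GC content of 45.0%, against 34.2% in windows 300 bp to each side, and it was higher than the flanks at all 8, with a range of 34.7% to 54.5%. Over all 910 thresholded regions the means were 43.8% and 34.6%. How many of the 910 had a higher GC content than their own flanks was not counted. The vertebrate Gfi1 site has AATCAC at its centre, and this word lay within 50 bp of 1 of the 8 summits, that in the sca-1 intron, and of 5.05% of all 910. GAGAGA was at 3 of 8, those of unc-68, shk-1 and the sca-1 promoter, and at 28.8% of all. ATGGCA was at twk-18 and at 15.2% of all, and GACGCA at lgc-34 and at 12% of all. CACGTG (5.71% of all), CAGCTG, the form of E-box bound by the muscle regulator HLH-1 (5.16%), and the CArG box bound by SRF proteins (0.33%) were at none of the 8 in this window. At the summits of single replicates CACGTG was at 0 to 1 and CAGCTG at 1. In the 16 windows flanking the 8 summits, AATCAC, like ATGGCA, was in 2, the same share as at the summits, GAGAGA was in 2 and GACGCA in 0. Over all 910, the shares of flanking windows were 5.11% for AATCAC, 7.2% for GAGAGA, 3.19% for ATGGCA and 2.31% for GACGCA. These words were searched on both strands, and ATGGCA overlaps TGCCA, since TGGCA is the other strand of TGCCA.

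The words TGCCA and TGCCG were picked after the printed sequences had been seen. TGCCA was within 50 bp of 4 of the 8 summits, those of lgc-34, twk-18, unc-68 and the sca-1 promoter. It was also in 4 of the 16 windows flanking these 8 summits. Over all 910 it was at 41.6% of summits and in 15% of flanking windows. TGCCG was at 5 of 8, those of lgc-34, twk-18, egl-19 and 2 upstream regions of sca-1, and in 1 of the 16 flanking windows, against 18.6% of all summits and 6.98% of their flanks. At the summits of replicate 2 alone it was at 3 of the 7 matched regions. At least 1 of these words was at 6 of the 8 summits and at 51.4% of all 910. At lgc-34 a copy of TGCCA lay across the summit base itself and TGCCG was centred 11 bp beyond it, while twk-18 held 2 copies of each. In windows of the same length over all 30000 pooled regions the shares were 15.6% for TGCCA and 8.45% for TGCCG.

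The word TGCCA was more frequent the higher a region ranked in the pooled list. It was at 95% of the 20 highest regions, which include those of lgc-34 and twk-18, and at 77.5% of ranks 21 to 100, which include unc-68. The share was 47% for ranks 101 to 500, 26.8% for ranks 501 to 910 and 14.7% below the threshold. Among the 6 genes the 3 with the highest regions had TGCCA there, and the highest regions of sca-1, shk-1 and egl-19 did not. The trend was not tested. Since the word was picked after the sequences at these genes had been seen, nothing is read from its presence there.

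**Figure D3:**
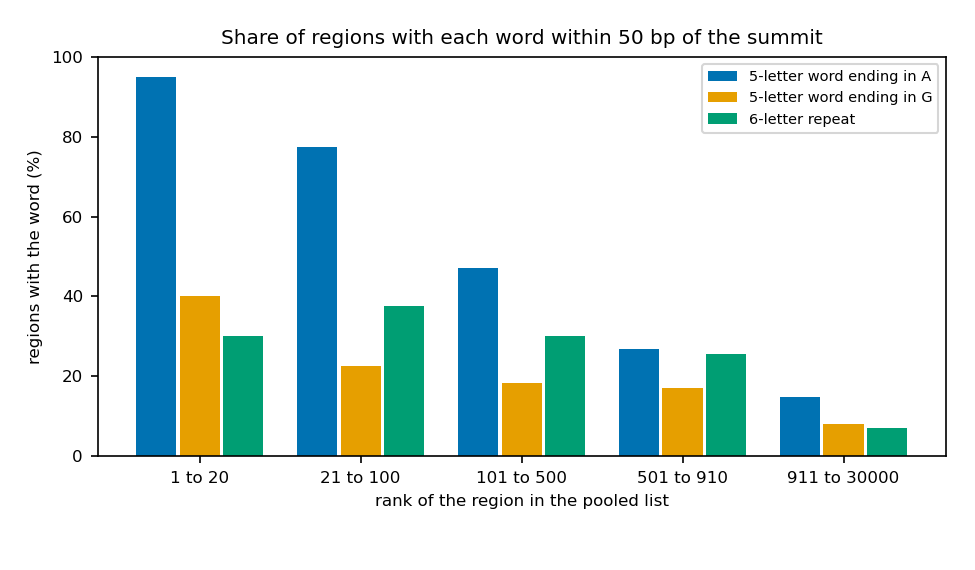
Share of regions (percent, vertical) with a word within 50 bp of the summit, by rank in the pooled list (horizontal). The 5-letter word ending in A is TGCCA, that ending in G is TGCCG, and the 6-letter repeat is GAGAGA. The share with TGCCA is 95% for the 20 highest regions and 14.7% for those below the threshold. For TGCCG these shares are 40% and 8.13%. GAGAGA lies between 25.6% and 37.5% in the 4 thresholded bins and is at 7.12% below the threshold.

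The other genes of calcium handling, potassium and sodium leak channels, muscle synapses, lgc channels and the dystrophin complex were counted by the same rule. Of 195 such genes in 7 lists, 24 had a thresholded region (12.3%, against 10.2% of all protein-coding genes). Over the listed genes as a whole, the median of the highest pooled signal per gene was 23.1, against 22.6 over all protein-coding genes. Over the 24 alone it was 51.2, against 58.5 over all genes with a thresholded region. For 8 of these 24 the gene's own start was the nearest to the summit, and for 16 it was another gene's. These lists were counted without a test.

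In the calcium list 4 of 32 genes had a region. The highest was at mcu-1, the gene of the mitochondrial calcium uniporter, with a signal of 299 (rank 20), 1506 bp upstream, but the start of pfkb-1.2 was nearer. csq-1, which encodes calsequestrin, the calcium-binding protein of the sarcoplasmic reticulum, had one of 121 (rank 99) 248 bp upstream, which ranked 65 in replicate 1 and had no match in replicate 2. The calmodulin gene cmd-1 (45.8) and ccb-1 (44.2), a calcium channel beta subunit, had regions close to the threshold. In replicate 1 these ranked 764 and 796. In replicate 2 that of cmd-1 ranked 5773 and that of ccb-1 had no match.

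Other potassium channel genes had no region among the 100 highest. Of 25 voltage- and calcium-gated channel genes, kqt-2 (55.5) and egl-2 (47.6) had one, both beyond the end of the gene. Of 48 genes of twin-pore channels and their partners, 5 had one, the highest being at twk-3 (74.9), twk-12 (67.8), twk-34 (61.6) and twk-16 (48.6), and in each of the 5 cases another gene's start was nearer. In replicate 2 those of twk-3 and twk-12 ranked 277 and 310, and those of twk-34 and twk-16 had no match. Of 4 genes of the sodium leak channel complex, nca-2 (71.3) and nlf-1 (48.0) had one, and nca-1, a pore subunit, had no match by name and was not counted. Among 55 other lgc genes 4 had one, and the neighbours lgc-1 and lgc-29 shared that with a signal of 141 (rank 71), while lgc-13 (44.8) and lgc-12 (44.5) were near the threshold. Another gene's start was nearer to each of these lgc summits, and to those of kqt-2, egl-2, nca-2 and nlf-1.

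At muscle synapse and dystrophin genes no region was among the 100 highest either. Of 19 genes of synaptic receptors and their helpers, 4 had one: unc-49 (53.8), a GABA receptor, molo-1 (46.4), an auxiliary subunit of acetylcholine receptors, ric-3 (46.2), a receptor chaperone, and lev-9 (45.0), a protein that clusters acetylcholine receptors. In that order these regions ranked 555, 727, 1635 and 1234 in replicate 1. In replicate 2 they ranked 4604, 3719, 14969 and 722. Of 12 dystrophin complex genes, dys-1 (58.5), which encodes dystrophin, dyc-1 (57.5) and sgn-1 (47.2), a sarcoglycan gene, had one. At lev-9 and dys-1 another gene's start was nearer to the summit. Sarcomere genes were counted beside these lists. A region was counted for 6 of 8 thick filament genes, with unc-54 (391), unc-15 (305), mlc-3 (263) and mlc-2 (238) highest, and for 10 of 15 thin filament genes, with act-4 (353), tnt-2 (239), unc-27 (143) and act-1 (115) highest. Another gene's start was nearer to these summits at unc-15, mlc-2, act-4 and unc-27. The highest regions of lgc-34 (376) and twk-18 (303) were within the range of these heights.

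**Figure D4:**
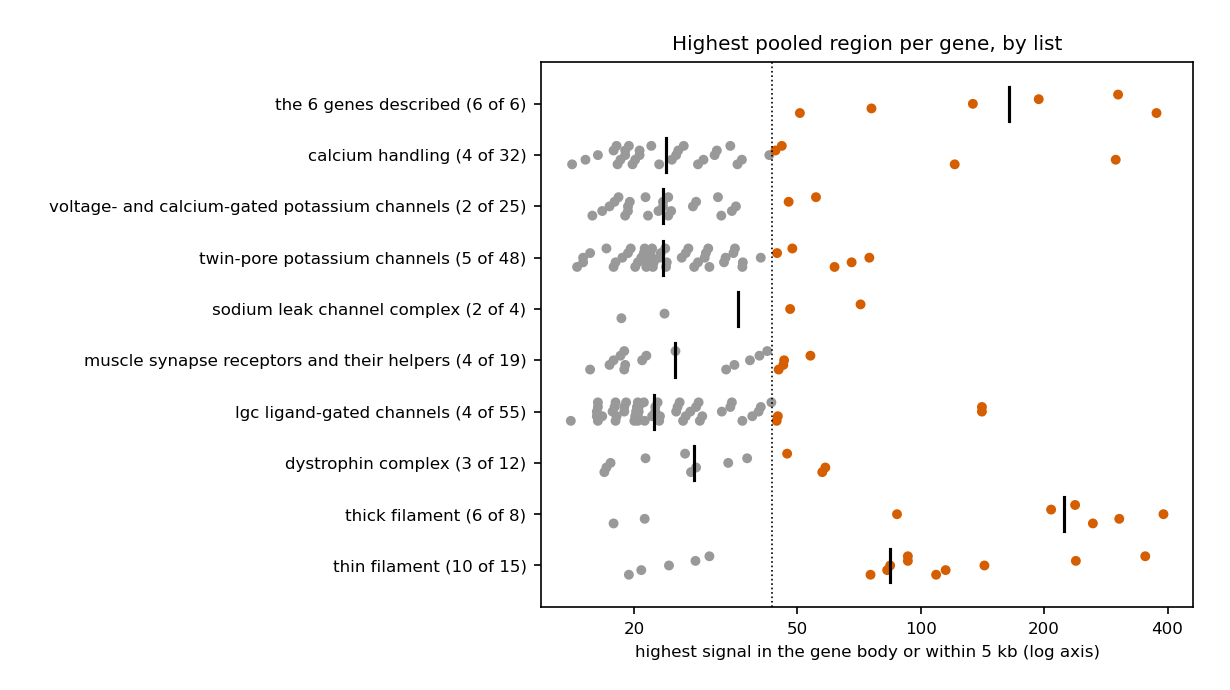
Highest pooled signal in the gene body or within 5 kb (log axis) for each gene, by list, with the number of genes that have a thresholded region and the number in the list. Orange points are genes with a thresholded region, grey points are the others, black bars are medians and the dotted line is the lowest thresholded signal. The 6 genes described run from 50.7 to 376, while the medians of the 7 other excitability lists lie below the line.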

How the data were processed

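PAG-3 was mapped by ChIP-seq in 2 biological replicates of whole L1 larvae, which form 1 group (replicate numbers per the labels). Per the file headers and descriptions, the authors deposited for each replicate, and for both together, a list of 30000 regions made as input for IDR from ce11 alignments and 1 control file, and a set of 910 regions thresholded by IDR. For aligner and caller, no name was given in the sources used here. Signal, as deposited, is the height of a region as the authors' caller gave it. The authors' score in narrowPeak column 9 held values below 0 and was not used, nor were the ce10 lists. The deposited summit offset gave each summit. Each of the longer lists has a fixed length and includes background, per its description. The number of reads behind a region is unknown, and no interval for depth was computed.

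Gene models were those of Ensembl release 115 for WBcel235, which is ce11, and sequence from the RefSeq genome of that assembly. A gene start is the outer end of its model. Replicate regions were matched to the nearest summit within 100 bp. A place in a gene was that of any transcript. Words were sought on both strands within 50 bp of a summit. Counting was done with Python 3.11.15 and pandas 2.3.3, and was tested on simulated data. No statistical test was run, because the members were chosen from these lists.

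The members and the 9 gene lists were chosen with earlier results of these data known. The same holds for the 6-letter words, apart from that bound by HLH-1. In the lists, 2 names (nca-1 and unc-74) had no match in the annotation. The named genes are the 6 members, up to 4 genes with the highest region in each list, and genes that hold or are nearest to a member's region. ZK1321.4, aqp-10 and srtx-1, the TGCCA and TGCCG words and regions outside the rule were added after their values were seen. Alternatives were other distances around genes, each replicate alone, the 455 highest thresholded regions, other definitions of a match and other widths around the summit.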

Additional observations from a re-analysis of the deposited data

How the results depend on the processing

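Each comparison rests on 1 group, so no paired analysis was possible because no groups were compared. The 6 genes were chosen from these regions, so nothing is read from their counts here. With summits inside the gene body alone (0 kb), 2 of the 6 genes had a thresholded region, 2 regions in all. Of the 195 listed genes 4 had one (2.05%), and of all genes 259 (1.3%). Within 2 kb, all 6 genes had one (7 regions), against 13 listed genes (6.67%) and 1223 of all (6.12%). Within 10 kb it was again 6 (12 regions), against 37 (19%) and 3295 (16.5%). Among the 455 highest thresholded regions, 5 genes had one (6 regions), against 8 listed genes (4.1%) and 1021 of all (5.11%). In the 910 highest regions of a single replicate, 5 genes had one in either, with 7 regions in either. Against this stood 17 to 25 listed genes (8.72% to 12.8%) and 2020 to 2055 of all (10.1% to 10.3%). The 7 of replicate 1 were matched to 7 of the 8 thresholded regions. Those of replicate 2 held matches of 6 of the 8 and a further region matched to none of the 8. The gene lost was egl-19 in replicate 1 and shk-1 in replicate 2. The rank of the highest region in the single lists ran from 11 to 13 for lgc-34, 14 to 22 for twk-18, 42 to 94 for unc-68, 94 to 102 for sca-1, 198 to 2239 for shk-1 and 600 to 1045 for egl-19. The regions matched in both replicates numbered 5 to 7 under other definitions of a match.

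Counts of words at the 8 summits depended on the width. Within 25 bp, the words AATCAC (0 of 8), GAGAGA (0), ATGGCA (0) and GACGCA (0) were absent, while TGCCA was at 2 and TGCCG at 5. Within 100 bp, GAGAGA was at 5, GACGCA at 2, CACGTG at 1, CAGCTG at 2, TGCCA at 5 and TGCCG at 7. At the summits of single replicates, of which 8 were matched in replicate 1 and 7 in replicate 2, the counts were 0 to 1 for CACGTG, 1 in either for CAGCTG, 3 to 5 for TGCCG, 4 for TGCCA and 3 for GAGAGA. The cause of these changes was not tested. The number of reads and the controls behind the regions limit what the heights can show.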

Other observations

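Non-coding genes were annotated at several of the summits. Of the 8 thresholded regions, 4 had a non-coding gene, piRNA genes aside, over or within 100 bp of the summit, as had 15.9% of all 910. They were C24A3.13 at twk-18, Y57E12B.8 at unc-68, K11D9.6 at the promoter region of sca-1, and K11D9.8 and linc-129 at the region far upstream of sca-1.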
